A study of Homo sapiens with 24 samples.

Results

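EXTL3 and 9 other genes of heparan sulfate synthesis were followed through 24 RNA-seq libraries of A549, a lung adenocarcinoma cell line. The 10 genes were selected on the level of EXTL3, whose transcript was much lower after MYBL2 siRNA, as the pathway around it, and they were read from the 58721 gene rows of the count tables by Ensembl identifier. Transfected cells received 25 nM siRNA. The siMYBL2 group (n = 4) received siRNA against MYBL2, a transcription factor of the Myb family, and the siFOXM1 group (n = 4) received siRNA against FOXM1, a forkhead transcription factor. The siControl group (n = 4) received non-targeting siRNA and served as control for both, so these comparisons share their control libraries. The siBoth group (n = 3) received both siRNAs and had its own non-targeting control, siControl_siBoth (n = 3). Whether 25 nM was the dose of each siRNA in siBoth or of both together is not stated. The FDI6 group (n = 3) was treated with 20 µM FDI-6, a small molecule that blocks FOXM1 binding to DNA, for 24 h and was compared with control_FDI6 (n = 3), which received DMSO according to the supplement list of the study. The methods of the study describe the replicates of every RNA-seq experiment as biological.

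Heparan sulfate is a sulfated sugar chain carried by cell-surface and matrix proteoglycans, where it binds growth factors and their receptors. Its synthesis in the Golgi starts on a short linker attached to serine residues of a core protein. EXTL3 adds the N-acetylglucosamine that commits the linker to heparan sulfate, whereas the enzymes CSGALNACT1 and CSGALNACT2 add N-acetylgalactosamine and commit it to chondroitin sulfate. The copolymerase made of EXT1 and EXT2 then extends the chain, and NDST, GLCE, HS2ST and HS6ST enzymes modify it.

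Between 16487394 and 30140550 read pairs per library were counted on genes. The share of pairs not aligned was 9.09% to 10.93% in siBoth and 7.68% to 7.92% in its controls, against 1.73% to 3.03% in all other libraries. Levels are given as CPM, a gene's counts per 1000000 counts of its library, scaled by the trimmed mean of M-values (TMM) over all libraries. A gene was called changed at an adjusted p under 0.05 with a fold change over 1.5 in edgeR's quasi-likelihood test. This test did not pair libraries by replicate number, and fits with that number as a block are given as alternatives. CPM is a share of a library, so fewer cells with a transcript and less transcript per cell cannot be told apart. All 5 epithelial markers exceeded 1 CPM in every library, led by KRT8 at 1600 to 5650 CPM. Of the 5 alveolar type II markers, ABCA3 stood at 53.7 to 128 CPM and NAPSA at 0.546 to 3.07 CPM, whereas SFTPB, SFTPC and NKX2-1 stayed at or under 0.321 CPM. The 4 fibroblast markers summed to 6.18 to 59.6 CPM, of which COL1A1 gave 4.91 to 58.8 CPM. The endothelial markers summed to at most 4.58 CPM and the leukocyte markers to at most 0.27 CPM, with CD3E at 0 in all 24 libraries.

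Both targeted transcripts were reduced by their siRNAs. MYBL2 averaged 154 ± 18.9 CPM (SD, n = 4) in siControl and 6.39 ± 1.88 CPM in siMYBL2, 4.15% of control, and it stood at 4.91% of control in siBoth. FOXM1 stood at 9.63% of control in siFOXM1, at 9.67% in siBoth and at 60.2% in siMYBL2. In FDI6, MYBL2 differed by −0.51 (SE 0.0902, adjusted p = 0.00105 in edgeR) and FOXM1 by −0.37 (SE 0.0806, adjusted p = 0.004) on the log2 scale, both under the fold limit.

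EXTL3 (ENSG00000012232.8) lies on the plus strand of chromosome 8 from 28600469 to 28756561 (hg38) with 7 exons in its canonical transcript. In siControl its level was 86.4, 82.9, 78.5 and 87.6 CPM in replicates 1 to 4. In siMYBL2 it was 18.7, 23.1, 17.5 and 20.9 CPM. Each siMYBL2 library was far below each control library, and the mean was 23.9% of control. The log2 fold change was −2.06 (SE 0.0897, n = 4 and 4). It is given without a test, since this contrast is what led to the choice of the genes.

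The double knockdown included the MYBL2 siRNA, and its results were also known when the genes were chosen, so EXTL3 is described there without a test. EXTL3 measured 87.4, 89.9 and 95.3 CPM in siControl_siBoth and 22.6, 27.4 and 25.6 CPM in siBoth, with no overlap between the groups. The log2 fold change was −1.85 (SE 0.0955, n = 3 and 3), and the mean was 27.7% of control. In 6 fits that each left out 1 library, the log2 fold change ranged from −1.92 to −1.79. These libraries share the MYBL2 siRNA treatment with siMYBL2 but no library with it.

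EXTL3 was called neither in siFOXM1 nor in FDI6. In siFOXM1 it measured 90.1, 87.7, 86.7 and 95.1 CPM, which overlaps the controls. Its log2 fold change was 0.09 (SE 0.0542, adjusted p = 0.535 in edgeR), although each siFOXM1 library stood slightly above the control library of the same number and the value with replicate number as a block, 0.095 (SE 0.0353), had an adjusted p of 0.0473. In FDI6 it measured 84.1, 79.8 and 82.1 CPM against 73.5, 70.8 and 69.0 CPM in the controls, a log2 fold change of 0.20 (SE 0.0679, adjusted p = 0.0337 in edgeR) that stayed under the fold limit. The siBoth effect minus the siFOXM1 effect on EXTL3 was −1.95 (SE 0.0987), fitted on 4 groups without the siMYBL2 libraries and likewise given without a test. The FDI6 effect minus the siFOXM1 effect was 0.10 (SE 0.0832, adjusted p = 0.401 in edgeR) and was not called.

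**Figure D1:**
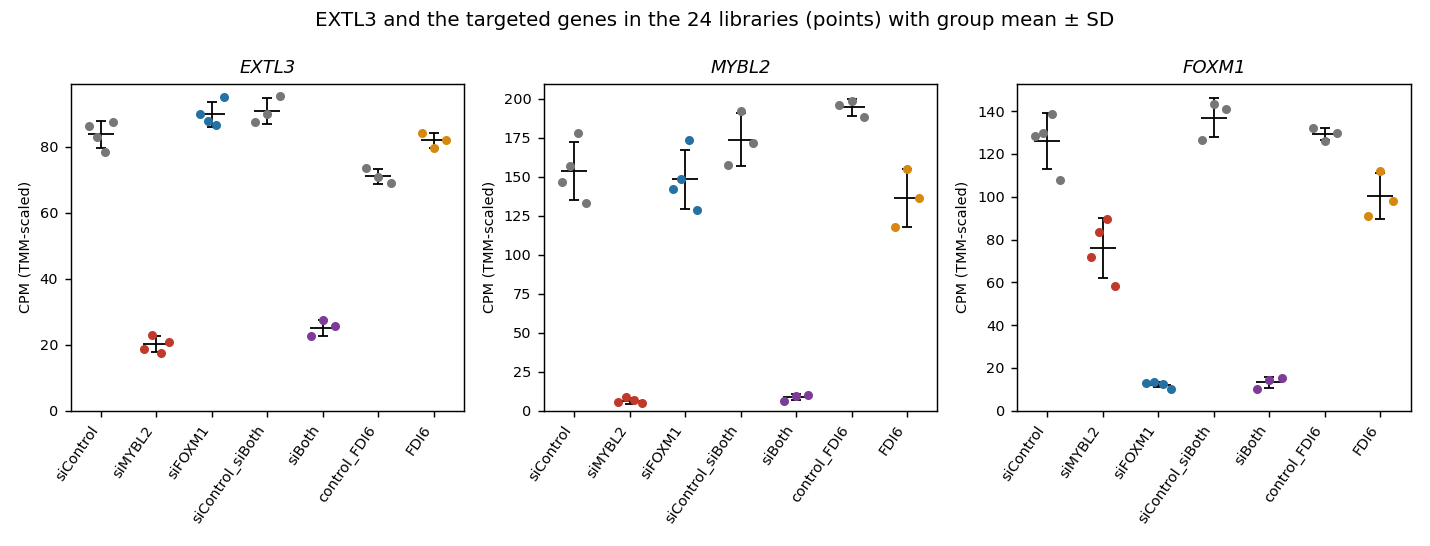
CPM (TMM-scaled, linear axis from 0) of EXTL3, MYBL2 and FOXM1 in each of the 24 libraries (points), with the mean and SD of each group (black). EXTL3 lies at 17.5 to 27.4 CPM in the 7 libraries that received MYBL2 siRNA, whereas the other libraries lie at 69.0 CPM or above.

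Across the 24 libraries, 5 genes followed EXTL3 most closely when each library was expressed as log2(CPM + 0.5) minus the mean of its own control group. The 11368 genes ranked averaged 100 counts or more per library, and the 5 were VANGL1 (a membrane protein of planar cell polarity, Pearson r = 0.992), YWHAG (a 14-3-3 protein, r = 0.992), DAP (r = 0.990), FAM168B (r = 0.985) and RDH11 (a retinol dehydrogenase, r = 0.985). The libraries share treatments and controls, so these values describe a shared pattern and carry no test. VANGL1 had log2 fold changes of −2.11 in siMYBL2 and −2.11 in siBoth, against −0.06 in siFOXM1. DAP had −2.67 in siMYBL2, −2.57 in siBoth and 0.02 in siFOXM1. MYBL2 itself ranked 7th of the 11368 genes at r = 0.98, above every other gene of the pathway set.

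No other gene of the set had the EXTL3 pattern. Of the 7 others that could be ranked, EXT1 had the highest correlation with EXTL3 (r = 0.38, rank 3476) and EXT2 the lowest (r = −0.74, rank 10874). HS6ST2 and NDST2 had too few counts to be ranked.

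**Figure D2:**
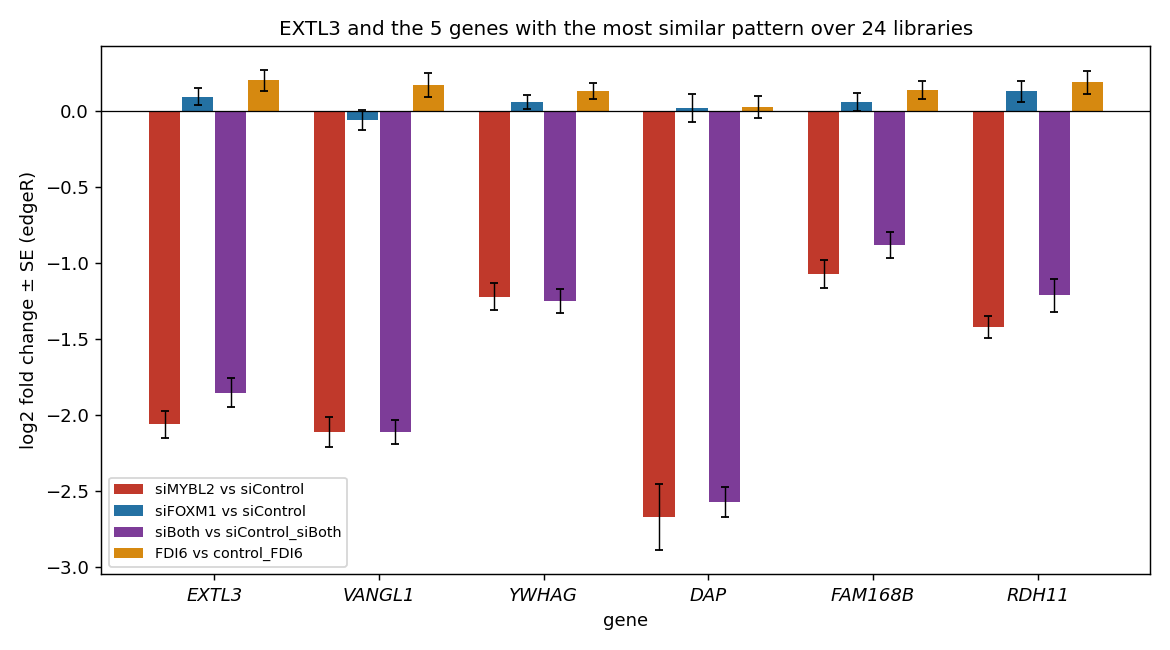
Log2 fold change with SE (bars and whiskers, edgeR) of EXTL3 and the 5 genes with the most similar pattern, in 4 comparisons. The bars for siMYBL2 and siBoth reach from −0.88 to −2.67, and the bars for siFOXM1 and FDI6 lie between −0.06 and 0.20.

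The 3′ untranslated regions (UTRs) were searched for a pair of 7-base words, ACGCCCA and CCTTACA, on the transcript strand only. Both words came from earlier results of these data as frequent in genes lower with MYBL2 siRNA. Their counts in siMYBL2, and in siBoth, which received that siRNA too, are therefore no independent support. The siRNA sequences are not given in the sources used here. Of the 10 genes, EXTL3 alone held ACGCCCA, once, at base 285 of a UTR of 4733 bases, and none held CCTTACA. In all, 4.05% of 19269 canonical UTRs of at least 30 bases held ACGCCCA and 7.78% held CCTTACA. In siBoth, tested genes with ACGCCCA had a median log2 fold change of −0.129, against 0.004 without it, and 7.55% against 3.97% were called lower. For CCTTACA the medians were −0.174 and 0.011, with 13.3% and 3.27% called lower. In siFOXM1 the medians with and without CCTTACA were −0.009 and −0.004, with 0.528% and 0.725% called lower. In FDI6, which used no siRNA, they were 0.195 and −0.019, the opposite direction to siBoth, with 3.27% and 5.86% called lower. For ACGCCCA the medians were −0.004 and −0.005 in siFOXM1, with 1.16% and 0.686% called lower. In FDI6 they were 0.062 and −0.003, with 3.33% and 5.75% called lower. The length of the UTRs was not taken into account in these values. A match is only a match of letters, and its part in the EXTL3 level was not tested. All 7 libraries with low EXTL3 received the MYBL2 siRNA, so an effect of losing MYBL2 and an off-target effect of that siRNA on EXTL3 cannot be told apart here.

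VANGL1, DAP and RDH11, of the genes that followed EXTL3, held CCTTACA, whereas YWHAG and FAM168B held neither word. None of these genes held ACGCCCA, the word in EXTL3, and EXTL3 held no CCTTACA, so none shared a word with EXTL3. Of 70 further genes of the pathway, 6 held CCTTACA. XYLT2 and CSGALNACT1 were called lower in siMYBL2, and CSGALNACT1, SLC35B4 and GPC6 in siBoth, as described with their lists. HS3ST1 and SLC35A3 were not called in either. Of all genes tested, 3.52% were called lower in siMYBL2 and 3.64% in siBoth. The word came from genes lower with MYBL2 siRNA, so nothing is read from these counts. To show CCTTACA in its context, sites of 6 genes that held it are printed, none of them from EXTL3. The 6 were picked among genes lower in siMYBL2 or siBoth, so sites of HS3ST1 and SLC35A3 are not shown. The site of CSGALNACT1, which was called lower in both, is not shown either. The sites run 5′ to 3′ on the transcript strand, with 10 bases on each side in lower case and the word in capitals. They come from the hg38 genome and are given with strand and position. For SLC35B4, which held the word 3 times, and VANGL1, which held it 2 times, the first site is shown.
XYLT2, chr17:50360324-50360350, plus strand: ggaaattgcaCCTTACAgacagtggag
SLC35B4, chr7:134293225-134293251, minus strand: ttagctggaaCCTTACAtaccagtaca
GPC6, chr13:94406450-94406476, plus strand: aatctgtctcCCTTACAatgacttacc
VANGL1, chr1:115691671-115691697, plus strand: gggagcctcgCCTTACAactaattcct
DAP, chr5:10680903-10680929, minus strand: ctgtcctttgCCTTACAtttccatatt
RDH11, chr14:67677243-67677269, minus strand: tggggcatttCCTTACAttgtcttgac

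In siControl the genes of the set spanned a wide range of levels per kilobase of canonical transcript. NDST1 and EXT2 were highest at 18.3 ± 3.11 and 16.6 ± 0.894 CPM per kb (SD, n = 4). GLCE at 11.8 ± 1.69, EXT1 at 10.5 ± 0.790, EXTL3 at 10.2 ± 0.499, HS2ST1 at 8.55 ± 1.14, EXTL2 at 7.42 ± 0.690 and HS6ST1 at 6.92 ± 2.13 CPM per kb followed, and each overlapped its neighbour in this order. EXT2 and GLCE did not overlap. HS6ST2, the second 6-O-sulfotransferase, was far lower at 0.303 ± 0.118 CPM per kb.

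NDST2 (ENSG00000166507.17), the second N-deacetylase and N-sulfotransferase, was nearly absent from the counts, with 0 to 14 counts per library and at most 0.562 CPM. It failed the filter on low counts in every comparison, so 9 of the 10 genes were tested. In the GENCODE V44 annotation, 82.9% of its exon bases (chr10:73801911-73811798, minus strand) overlap the read-through gene ENSG00000272916 on the same strand, and read pairs that fit both genes are not assigned to either, so its level is uncertain. HS2ST1 overlaps ENSG00000267561 over 8.5% of its exon bases on the same strand.

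The controls of the 3 experiments differed in level for several genes. EXT1 measured 86.7 ± 6.51 CPM in siControl, 119 ± 4.40 CPM in siControl_siBoth and 42.4 ± 0.474 CPM in control_FDI6. HS6ST2 measured 1.27 ± 0.493, 4.08 ± 1.27 and 4.31 ± 0.482 CPM in the same order. Of these controls, siControl and siControl_siBoth both received non-targeting siRNA. For control_FDI6, experiment and treatment of the controls cannot be told apart. Each treatment was therefore compared only with its own controls.

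**Figure D3:**
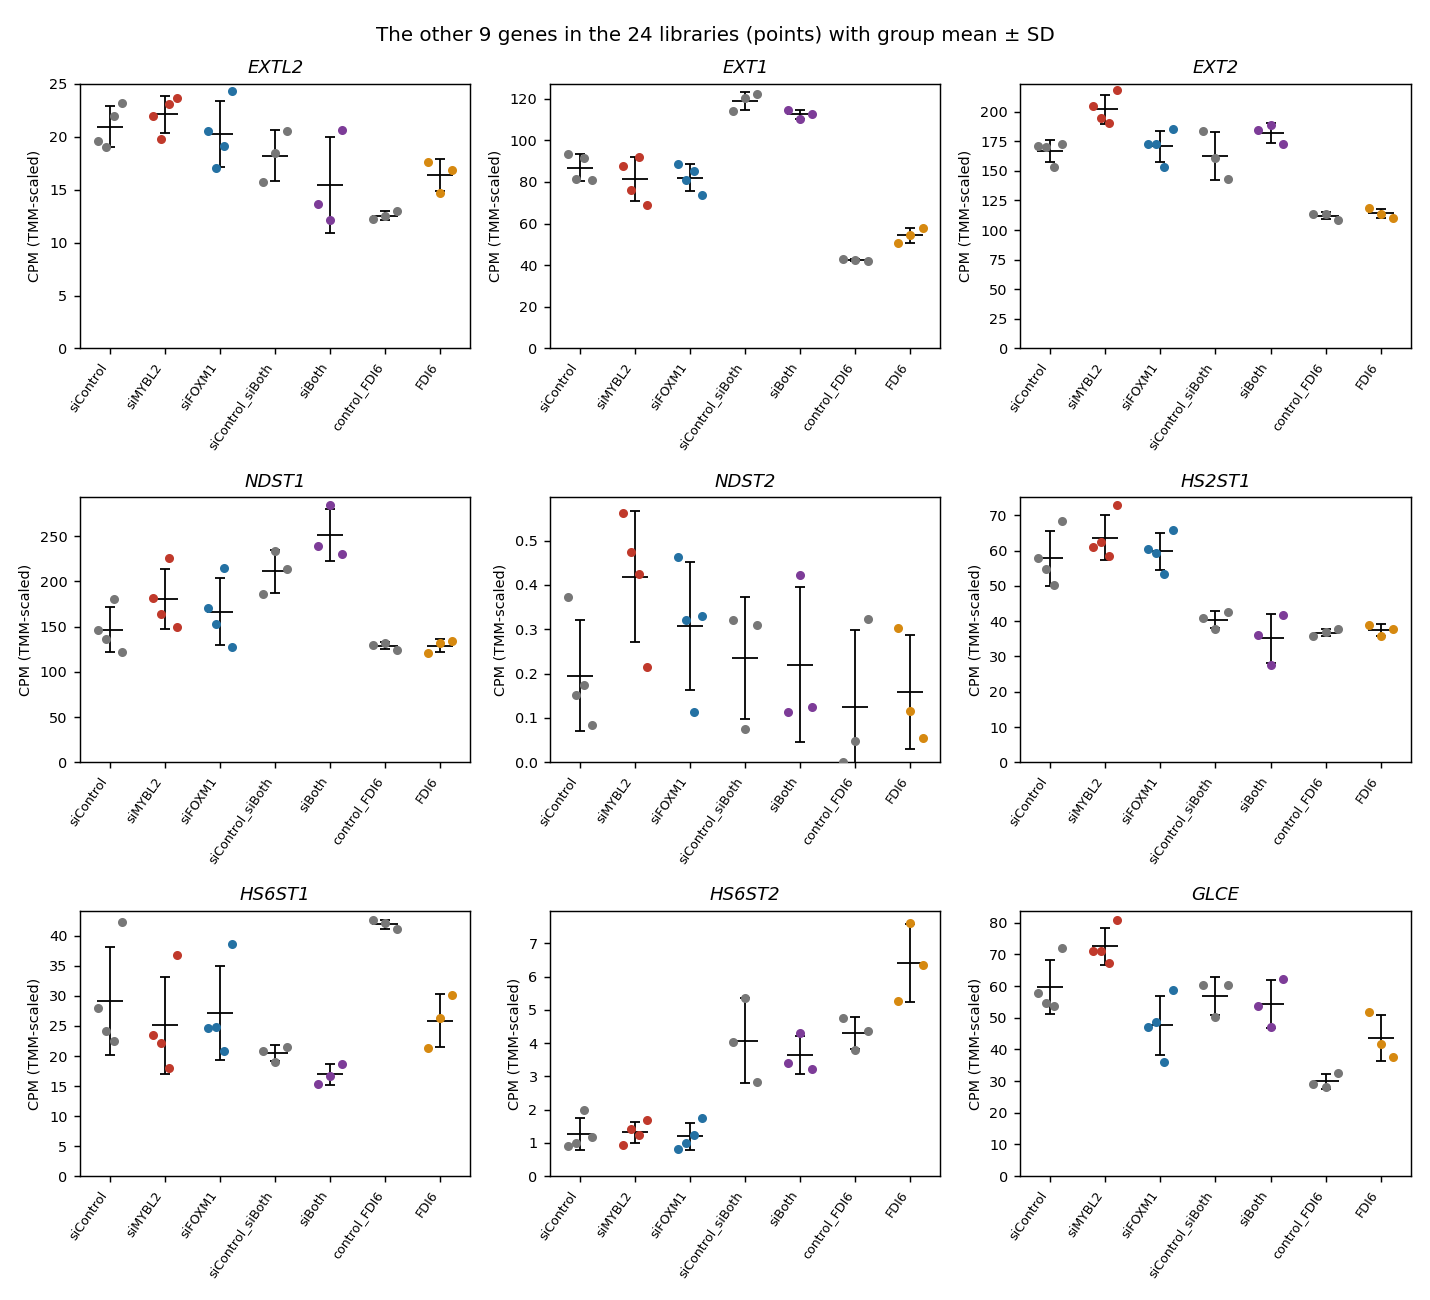
CPM (TMM-scaled, linear axes from 0, scale differing by panel) of the other 9 genes in each library (points), with the mean and SD of each group (black). EXT1 shows the gap between experiments, with 42.1 to 43.0 CPM in control_FDI6 and 114 to 122 CPM in siControl_siBoth.

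In siMYBL2, EXTL3 was the only 1 of 9 tested genes past the call limits, where 7.9% of all 16065 genes tested were called and 3.52% were called lower, and nothing is read from this count. The other 8 genes are given without a test here too, since the contrast is the one that led to the choice of the set. Of the chain polymerase subunits, EXT1 (ENSG00000182197.11, chr8:117794490-118111826, minus strand) had a log2 fold change of −0.09 (SE 0.102). EXT2 (ENSG00000151348.13, chr11:44095648-44251962, plus strand) measured 204.5, 194.8, 190.1 and 218.1 CPM in siMYBL2 against 171.0, 170.1, 153.3 and 172.4 CPM in siControl, a log2 fold change of 0.28 (SE 0.0652, and 0.0399 with replicate number as a block). Every siMYBL2 library was above every control library for EXT2. EXTL3 and EXT2 were the 2 of 9 genes whose groups did not overlap, as was the case for 23.1% of all genes tested.

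EXTL2 (ENSG00000162694.13, chr1:100872372-100895179, minus strand), which can add N-acetylglucosamine to a phosphorylated linker, had a log2 fold change of 0.08 (SE 0.094) in siMYBL2. Among the modifying enzymes, NDST1 (ENSG00000070614.14, chr5:150485818-150558211, plus strand), which replaces acetyl groups by sulfate, had 0.30 (SE 0.153). GLCE (ENSG00000138604.9, chr15:69160584-69272217, plus strand), the epimerase that makes iduronic acid, had 0.29 (SE 0.101). HS2ST1 (ENSG00000153936.16, chr1:86914635-87109982, plus strand) had 0.14 (SE 0.103), HS6ST1 (ENSG00000136720.6, chr2:128236716-128318868, minus strand) had −0.22 (SE 0.249), and HS6ST2 (ENSG00000171004.18, chrX:132626015-132961395, minus strand) had 0.05 (SE 0.296). HS6ST1 was read at 42.3, 36.8 and 38.6 CPM in replicate 4 of siControl, siMYBL2 and siFOXM1, against 18.0 to 28.0 CPM in the other libraries of these groups. Within pairs of the same replicate number, HS6ST1 was lower in siMYBL2 in 4 of 4, by log2 ratios of −0.32 to −0.13, and its log2 fold change with replicate number as a block was −0.22 (SE 0.0585). EXT2, EXTL2, NDST1, GLCE and HS2ST1 were higher in 4 of 4 pairs, EXTL2 by as little as 0.03, and EXT1 and HS6ST2 had pairs of both signs. The groups of all these genes except EXT2 overlapped.

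In siBoth, EXTL3 was the only 1 of 9 genes past the call limits, where 6.44% of 15812 genes were called and 3.64% were called lower, and nothing is read from this count either. Their log2 fold changes had a median of −0.16, against 0.02 over all genes tested. HS6ST1 measured 15.4, 16.7 and 18.7 CPM in siBoth against 20.8, 19.0 and 21.6 CPM in its controls. These groups did not overlap, but the log2 fold change of −0.27 (SE 0.116) had an adjusted p of 0.159 in edgeR (0.0446 with replicate number as a block) and was not called. Groups did not overlap for 2 of 9 genes, and for 35.1% of all genes tested.

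NDST1 had a log2 fold change of 0.25 (SE 0.117, adjusted p = 0.192 in edgeR and 0.0115 with the block) and EXT2 one of 0.16 (SE 0.103, adjusted p = 0.324) in siBoth. Both stood above the controls in 3 of 3 pairs of the same number. EXTL2, HS2ST1, HS6ST2, EXT1 and GLCE had log2 fold changes from −0.24 to −0.07, with adjusted p from 0.382 to 0.753 in edgeR. Of the siBoth effect minus the siFOXM1 effect, EXTL3 was again the only 1 of 9 genes past the limits, where 2.95% of 16938 genes were called and 1.98% were called lower. Nothing is read from this count, for the same reason.

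In siFOXM1, 0 of 9 tested genes were called in edgeR, where 0.667% of 15892 genes were called. None of the 9 had an unadjusted p under 0.05, against 13% of all genes, DESeq2 and the fit with replicate number as a block called none, and groups did not overlap for 0 of 9 genes against 9.33% of all genes. GLCE came nearest. It measured 47.1, 48.6, 35.9 and 58.8 CPM in siFOXM1 against 57.9, 54.5, 53.8 and 72.0 CPM in siControl. GLCE was lower in 4 of 4 pairs of the same replicate number, with a log2 fold change of −0.33 (SE 0.147, adjusted p = 0.395 in edgeR). With replicate number as a block it was −0.34 (SE 0.0496, adjusted p = 8.8e-06), which is past the p limit but not past the fold limit, as was NDST1 at 0.17 (adjusted p = 0.000456). The 7 genes other than EXTL3 and GLCE had log2 fold changes from −0.11 to 0.18, with adjusted p from 0.746 to 0.964 in edgeR.

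**Figure D4:**
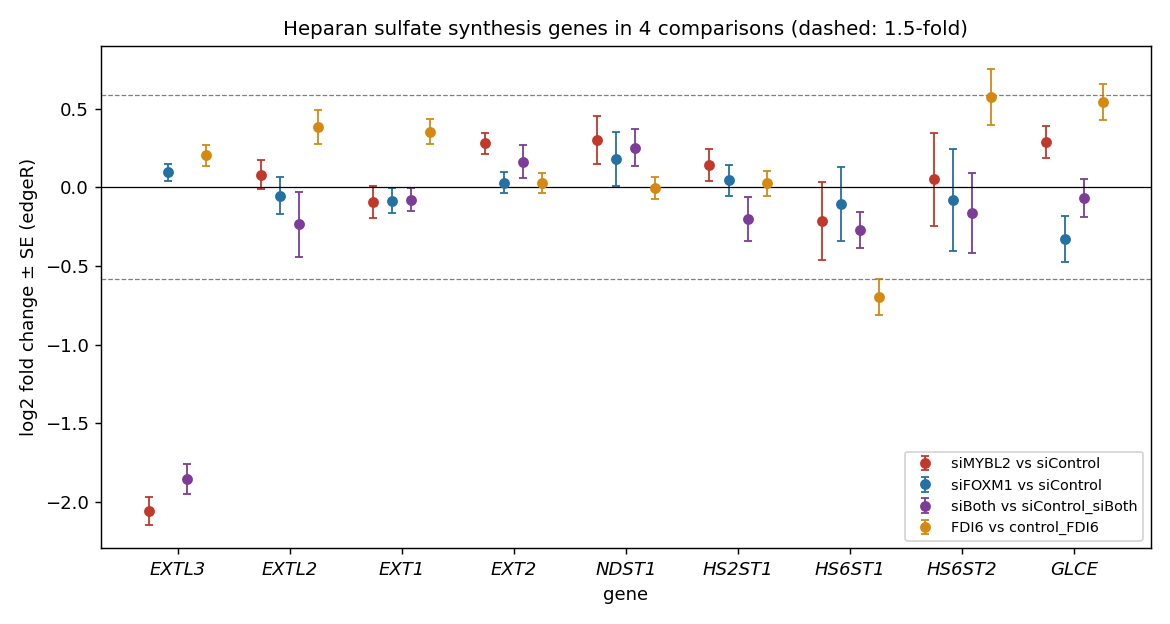
Log2 fold change with SE (edgeR, points and whiskers) of the 9 tested genes in 4 comparisons, with dashed lines at a 1.5-fold change. EXTL3 lies at −2.06 and −1.85 in the comparisons with MYBL2 siRNA, and HS6ST1 in FDI6 at −0.70 is the only other point past a dashed line.

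In FDI6, a 6-O-sulfotransferase was the gene of the set that was called. HS6ST1, which sulfates glucosamine, measured 21.3, 26.3 and 30.1 CPM in FDI6 against 42.6, 42.2 and 41.1 CPM in control_FDI6, with no overlap. HS6ST1 fell by 0.70 on the log2 scale (SE 0.114, adjusted p = 0.000674 in edgeR), to 61.7% of its control. It was the only 1 of 9 tested genes called, where 13.8% of 15240 genes were called and 5.77% were called lower. The value was −0.42 with a correction for GC content and length and −0.57 without FDI6 replicate 1, both under the fold limit. HS6ST1 has the highest GC content of the 10 canonical transcripts, 62.6%.

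The other 6-O-sulfotransferase, HS6ST2, measured 5.27, 7.63 and 6.34 CPM in FDI6 against 4.77, 3.81 and 4.36 CPM, from 79 to 131 counts per library. Its log2 fold change of 0.57 (SE 0.18, adjusted p = 0.0251 in edgeR) lay just under the fold limit, and it was past it at 0.70 without FDI6 replicate 1 and at 0.65 without control_FDI6 replicate 1. GLCE measured 51.7, 41.6 and 37.6 CPM in FDI6 against 29.1, 28.2 and 32.5 CPM. Its log2 fold change was 0.54 (SE 0.115, adjusted p = 0.00334 in edgeR). GLCE was past the fold limit at 0.63 without FDI6 replicate 3 and at 0.60 without control_FDI6 replicate 3.

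EXT1 measured 50.7, 54.4 and 57.7 CPM in FDI6 against 43.0, 42.3 and 42.1 CPM, a log2 fold change of 0.35 (SE 0.0787, adjusted p = 0.00445 in edgeR). EXTL2 measured 17.6, 14.7 and 16.9 CPM against 12.2, 12.5 and 13.0 CPM, a log2 fold change of 0.38 (SE 0.109, adjusted p = 0.0164 in edgeR). Neither passed the fold limit, although in both every FDI6 library was above every control library. EXT2, NDST1 and HS2ST1 had log2 fold changes of 0.03, −0.0038 and 0.03, with adjusted p from 0.78 to 0.971 in edgeR.

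In all, 6 of 9 genes had an adjusted p under 0.05 in FDI6, where 38.9% of all genes did, and groups did not overlap for 6 of 9 genes, where 51.6% of all genes did not. The transcripts of EXTL2, HS2ST1 and GLCE hold 38.1%, 37.8% and 39.0% GC. With the correction for GC content and length, GLCE moved to 0.25 (adjusted p = 0.019), EXT1 to 0.11 (adjusted p = 0.273), EXTL2 to 0.16 (adjusted p = 0.231), EXT2 to −0.23 (adjusted p = 0.0021) and HS2ST1 to −0.32 (adjusted p = 0.00174) on the log2 scale in edgeR. In this comparison the direction of EXT2 and HS2ST1 therefore depended on that correction.

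FDI6 and FOXM1 siRNA differed for GLCE. The FDI6 effect minus the siFOXM1 effect was 0.87 on the log2 scale (SE 0.215, adjusted p = 0.0112 in edgeR), the only 1 of 9 genes called, where 11.5% of 17026 genes were called and 7.32% were called higher. With the correction for GC content and length it was 0.53 (adjusted p = 0.0604) and was not called. For EXT1 the difference was 0.43 (SE 0.11, adjusted p = 0.0125), under the fold limit. For HS6ST1 it was −0.60 (SE 0.309, adjusted p = 0.187), and −0.61 (adjusted p = 0.000799) with replicate number as a block, which made it a call, as did leaving out siControl replicate 4 (−0.83, adjusted p = 0.0271).

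The rest of the pathway was read from 6 lists of 70 genes, of which 58 were tested in siMYBL2 and 57 in siBoth. In siMYBL2, 3 genes were called higher and 4 lower, 12.1% of those tested against 7.9% of all genes. In siBoth, 3 were called higher and 6 lower, 15.8% against 6.44%. The correction for GC content and length gave 5 calls in siMYBL2 and 4 in siBoth. Of all genes it called 1272 of 15994 and 862 of 15747. The replicate block gave 9 and 9, beside 1991 of 16065 and 1849 of 15812 of all genes. DESeq2 gave 8 and 9, beside 1409 of 15750 and 1191 of 15718. In siFOXM1, 0 of 58 were called in edgeR, in DESeq2 or with the replicate block, against 0.667% of all genes in edgeR, and 7 had an unadjusted p under 0.05, against 13% of all genes. The values in siMYBL2 come from the contrast that led to the choice of EXTL3.

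The chondroitin branch, which competes with EXTL3 for the same linker, had 16 genes, all tested. In siMYBL2, 2 fell and 1 rose, where 7.9% of all genes tested were called and 3.52% were called lower. The median log2 fold change was 0.11, against 0.01 for all genes. CSGALNACT1 fell from 155 ± 40.9 to 73.0 ± 19.9 CPM (SD, n = 4), by 1.09 on the log2 scale (SE 0.222, adjusted p = 0.0107 in edgeR). CSGALNACT2 fell by 0.75 (SE 0.131, adjusted p = 0.0054). The polymerising factor CHPF2 rose by 0.60 (SE 0.0939, adjusted p = 0.00334). In siBoth, 2 fell and 1 rose, where 6.44% of all genes tested were called and 3.64% were called lower. The median was −0.11, against 0.02. CSGALNACT1 fell by 0.98 there (SE 0.127, adjusted p = 0.00326 in edgeR), CHPF2 rose by 0.60 (SE 0.0942, adjusted p = 0.00697), and DSEL, a dermatan sulfate epimerase of 18 to 66 counts per library, fell by 1.33 (SE 0.345, adjusted p = 0.0412). CSGALNACT2 was not called in siBoth, at −0.31 (SE 0.0929, adjusted p = 0.0627 in edgeR).

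In the linker list, 1 of 7 genes was called in siMYBL2, where 7.9% of all genes tested were called and 3.52% were called lower. The median log2 fold change was −0.09, against 0.01. The xylosyltransferase XYLT2, which places the first sugar on the core protein, fell from 69.4 ± 7.46 to 42.0 ± 2.54 CPM, by 0.72 on the log2 scale (SE 0.0863, adjusted p = 0.000919 in edgeR). None of the 7 was called in siBoth in edgeR, where 6.44% of all genes tested were called. XYLT2 stood at −0.55 there (SE 0.0816, adjusted p = 0.0055 in edgeR), under the fold limit. With the correction for GC content and length XYLT2 was called there, at −0.68 (adjusted p = 0.00242). In the list of precursor supply, UGP2, which makes UDP-glucose, fell by 1.06 in siMYBL2 (SE 0.129, adjusted p = 0.000988 in edgeR). It was the only 1 of 12 called, where 7.9% of all genes tested were called, and the median of the list was −0.03. In siBoth, 3 of 12 fell, where 3.64% of all genes tested were called lower, with a median of −0.11. UGP2 fell by 1.00 (SE 0.124, adjusted p = 0.00278 in edgeR), the sulfate transporter SLC26A2 by 0.79 (SE 0.171, adjusted p = 0.0239) and the nucleotide sugar transporter SLC35B4 by 0.61 (SE 0.0981, adjusted p = 0.0077).

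Among core proteins, 10 of 13 were tested in each of these comparisons, with medians of 0.03 in siMYBL2 and 0.14 in siBoth. Syndecan-4 (SDC4) rose by 0.62 in siMYBL2 (SE 0.185, adjusted p = 0.0475 in edgeR) and by 0.61 in siBoth (SE 0.161, adjusted p = 0.0435). The glypican GPC6 fell in siBoth from 34.3 ± 1.53 to 19.5 ± 0.825 CPM (SD, n = 3), by 0.81 on the log2 scale (SE 0.0905, adjusted p = 0.00159 in edgeR). It was not called in siMYBL2, at −0.31 (SE 0.16, adjusted p = 0.21 in edgeR). In the list of sulfatases and degradation, 10 of 11 were tested, with medians of 0.22 and 0.25. SULF2, which removes 6-O-sulfate outside the cell, rose by 0.60 in siMYBL2 (SE 0.121, adjusted p = 0.0107), and the lysosomal iduronidase IDUA rose by 0.70 in siBoth (SE 0.17, adjusted p = 0.0334). Of the other heparan sulfate enzymes, 3 of 11 were tested in siMYBL2 and 2 in siBoth, and none was called in edgeR.

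The calls of XYLT2, CSGALNACT1, CSGALNACT2 and UGP2 in siMYBL2 and of CSGALNACT1, UGP2 and GPC6 in siBoth held under every alternative fit and without any 1 library. In siMYBL2, CHPF2 kept its call in 4 of 8 fits without 1 library (lost without siMYBL2 replicates 1, 2 or 3 or siControl replicate 4), SDC4 in 2 of 8 (kept without siMYBL2 replicate 4 or siControl replicate 2) and SULF2 in 6 of 8 (lost at 0.49 without siMYBL2 replicate 4 and at 0.52 without siControl replicate 2). In siBoth, CHPF2 kept it in 5 of 6 (lost without siBoth replicate 2), SLC35B4 in 4 of 6 (lost without siBoth replicate 2 or siControl_siBoth replicate 1), SLC26A2 in 2 of 6 (kept without siBoth replicate 3 or siControl_siBoth replicate 1), IDUA in 2 of 6 (kept without replicate 1 of either group), DSEL in 1 of 6 (kept without siControl_siBoth replicate 1) and SDC4 in 1 of 6 (kept without siBoth replicate 3). With the correction for GC content and length, CHPF2 at 0.57 and SULF2 at 0.58 were no longer called in siMYBL2, nor were 6 genes in siBoth, at 0.47 for CHPF2, −0.52 for SLC35B4, −0.61 for SLC26A2, 0.55 for IDUA, −1.16 for DSEL and 0.58 for SDC4. Upper-quartile scaling also took the siBoth calls of SLC35B4 (−0.54) and DSEL (adjusted p = 0.0514). In siMYBL2, DSEL became a call in DESeq2 (−1.05, adjusted p = 0.0284) and with the replicate block (−1.03, adjusted p = 0.000791), and the chondroitin 4-O-sulfotransferase CHST13 with the block (0.74, adjusted p = 0.036).

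**Figure D5:**
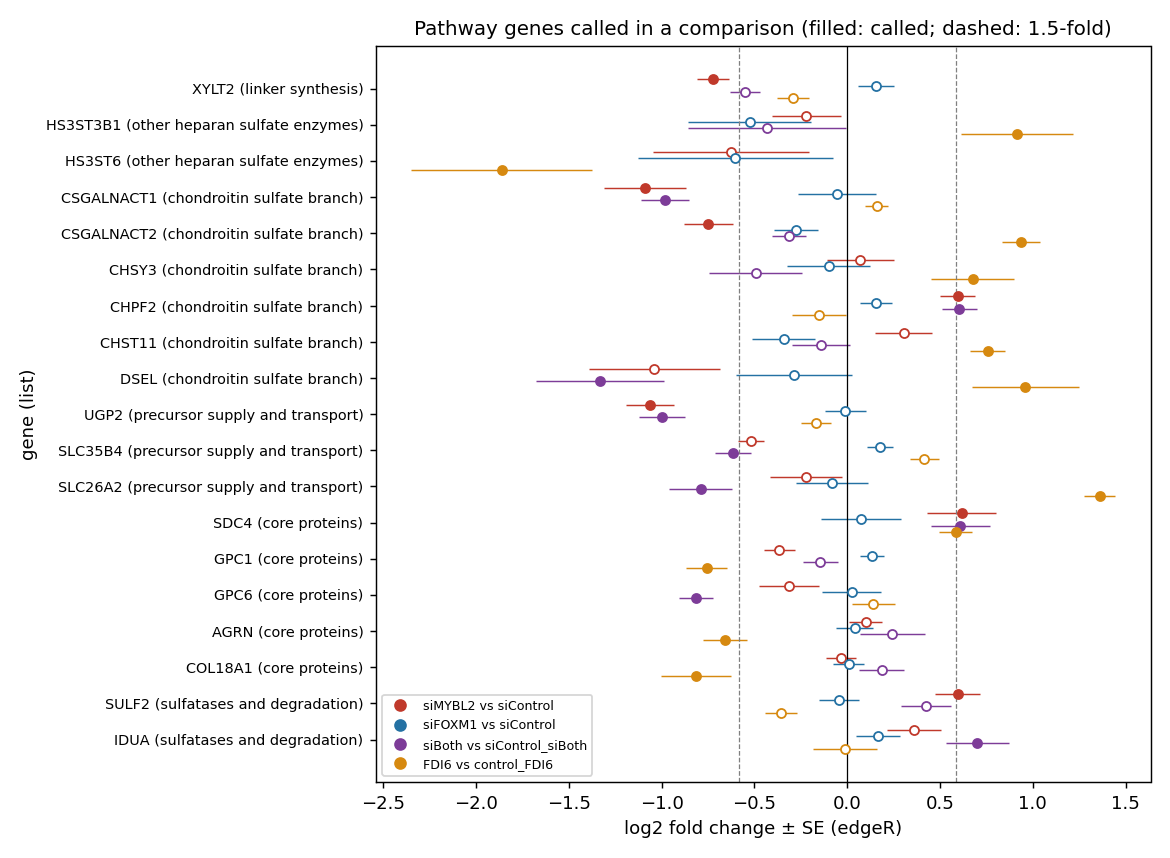
Log2 fold change with SE (edgeR) of the genes of the 6 further lists that were called in at least 1 of 4 comparisons (filled points called, open points not called, dashed lines at a 1.5-fold change). CSGALNACT1 and UGP2 lie between −0.98 and −1.09 in the comparisons with MYBL2 siRNA, and SLC26A2 lies at 1.36 in FDI6.

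In FDI6, 7 of 58 tested pathway genes rose and 4 fell, 19% against 13.8% of all genes. SLC26A2, the only 1 of 12 supply genes called, rose from 69.6 ± 2.78 to 179 ± 18.7 CPM (SD, n = 3), by 1.36 on the log2 scale (SE 0.0836, adjusted p = 5.81e-07 in edgeR). In the chondroitin branch 4 of 16 rose and none fell, with a median of 0.30 against −0.01 for all genes. Of all 15240 genes tested, 1219 were called higher and 5.77% were called lower. They included DSEL by 0.96 (SE 0.29, adjusted p = 0.0211), CSGALNACT2 by 0.94 (SE 0.102, adjusted p = 4.08e-05) and the 4-O-sulfotransferase CHST11 by 0.76 (SE 0.0941, adjusted p = 0.000102). CSGALNACT2, CHST11 and SLC26A2 kept their calls under every alternative and without any 1 library, whereas DSEL, at 19 to 45 counts per library, kept its call in 3 of 6 fits without 1 library (lost without FDI6 replicate 1 or control_FDI6 replicates 2 or 3) and lost it in DESeq2 and with the correction for GC content and length. The fourth gene, CHSY3, rose by 0.68 (adjusted p = 0.0321 in edgeR), lost its call in DESeq2 (adjusted p = 0.0752) and with the replicate block (adjusted p = 0.0575), and kept it in 1 of 6 fits without 1 library (kept without FDI6 replicate 1).

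Among the core proteins in FDI6, 3 of 10 fell and 1 rose, with a median of −0.31, where 5.77% of all genes tested were called lower. Collagen XVIII (COL18A1) fell by 0.82 (SE 0.189, adjusted p = 0.00549 in edgeR), GPC1 by 0.76 (SE 0.11, adjusted p = 0.000303) and agrin (AGRN) by 0.66 (SE 0.117, adjusted p = 0.00113), while SDC4 rose by 0.59 (SE 0.0892, adjusted p = 0.000439). With the correction for GC content and length the 3 that fell were under the fold limit, at −0.57, −0.45 and −0.41, and without FDI6 replicate 1 COL18A1 and AGRN were under it at −0.56 and −0.52. SDC4 was at the limit, lost its call in DESeq2, under RLE and upper-quartile scaling and with the replicate block, and kept it in 2 of 6 fits without 1 library (kept without FDI6 replicate 1 or control_FDI6 replicate 3). Of the 3-O-sulfotransferases, HS3ST3B1 rose by 0.92 (SE 0.301, adjusted p = 0.0309) and HS3ST6 fell by 1.86 (SE 0.487, adjusted p = 0.0105), at 17 to 46 and 3 to 45 counts per library. HS3ST6 lost its call at −1.53 without control_FDI6 replicate 3, and HS3ST3B1 lost it in DESeq2 (adjusted p = 0.0751) and kept it in 2 of 6 such fits (kept without FDI6 replicate 1 or control_FDI6 replicate 2). None of the 7 linker genes, with a median of −0.36, and none of the 10 degradation genes, with a median of −0.06, was called in edgeR. With the correction for GC content and length, the xylosyltransferase XYLT1 was called lower at −0.61 (adjusted p = 0.00983), from −0.54, and the polymerising factor CHPF higher at 0.68 (adjusted p = 9.06e-05), from 0.26.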

How the data were processed

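A549 RNA-seq libraries (24, polyA) were analysed. Per the labels and the study's methods, the authors trimmed reads with Trim Galore, aligned them to hg38 with STAR and deposited raw HTSeq counts per gene (GENCODE V29). The strand setting is not given in the sources used here. Rows that name no gene were left out. They held 18.47% to 26.17% of pairs per library in all. This includes ambiguous pairs (7.88% to 11.2%), pairs on no annotated feature (3.36% to 4.93%) and pairs not aligned or not aligned uniquely. Of 58721 identifiers, 58207 matched GENCODE V44, which gave symbols, positions, lengths and UTRs of canonical transcripts. Counts were tested with edgeR 4.0.16 in R 4.3.3 (TMM, filterByExpr, quasi-likelihood, Benjamini-Hochberg over all genes tested), each treatment against its own controls, and differences of effects in 4-group fits. The alternatives were DESeq2 1.42.0, RLE or upper-quartile scaling, other count filters, replicate block, correction for GC content and length, and leaving out each library. Up to 3 called genes per list and direction with the largest fold changes were named, and genes whose calls changed under an alternative were named after their values were seen, with lists, rules and members chosen with earlier results of these data known. The code was checked on simulated counts.

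Libraries of the same number in the labels deviated together from their group means (correlations of 0.58 to 0.88 in siMYBL2, 0.55 to 0.91 in siFOXM1 and 0.56 to 0.69 in siBoth), but not in FDI6 (−0.30 to 0.17). The main tests and calls nevertheless left this pairing out. It enters only where pairs of the same number are described and in the fits with the replicate block, which changed several adjusted p values. No replicate pair agreed within sampling noise (chi-square per gene 3.57 to 62.8 over 30 pairs).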

Additional observations from a re-analysis of the deposited data

Results flagged for a closer look

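EXT2 in siControl replicate 3, at 153.3 CPM, stood apart from the 170.1 to 172.4 CPM of the other libraries of its group, past Dixon's limit. Of 30 groups of values of the set checked, it was the only 1 past this limit, which chance passes in about 1 of 20.

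Differences between effects passed an adjusted p under 0.05 in edgeR for EXT1 (FDI6 effect minus siFOXM1 effect, 0.43 on the log2 scale) and for GLCE (FDI6 effect minus siFOXM1 effect, 0.87). The same rule flagged EXTL3 (siBoth effect minus siFOXM1 effect, −1.95). No test is read for EXTL3, because siBoth received the MYBL2 siRNA and its results were known when the genes were chosen. For EXT1 the difference was under the fold limit.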

How the results depend on the processing

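EXTL3 stayed past the call limits in siBoth and in the siBoth effect minus the siFOXM1 effect under all alternatives run. No test is read for EXTL3 in either. The number of genes called in siMYBL2 moved from 1269 to 1991 with the replicate block and 1967 with the correction for GC content and length and the block. In siFOXM1 it moved from 106 to 163 (DESeq2), 401 (block) and 386 (both corrections), and to 56 to 115 without 1 library. It moved by over 1.5 times without siFOXM1 replicates 1 or 3 or siControl replicates 1 or 2. In siBoth it moved from 1019 to 1545 (no filter on low counts), 1849 (block) and 1626 (both corrections), and to 587 to 1097 without 1 library, by over 1.5 times without siBoth replicate 2 or siControl_siBoth replicates 2 or 3. In FDI6 it moved from 2098 to 1391 (GC and length) and 1345 (with block). In the siBoth effect minus the siFOXM1 effect it moved from 500 to 1488 (block) and 1374 (both corrections), and in the FDI6 effect minus the siFOXM1 effect from 1959 to 1151 (GC and length). Of the 9 genes of the set, 0 were called in FDI6 with either GC correction and 1 to 2 without 1 library, and in the FDI6 effect minus the siFOXM1 effect 2 (block), 0 (either GC correction) and 1 to 2 without 1 library. The block changed no other call among the 9 genes. Of the genes called in siBoth, 43.5% were higher, and 59.4% with upper-quartile scaling, which moved the shares from 33% to 44.7% in the siBoth effect minus the siFOXM1 effect and from 63.7% to 51.4% in the FDI6 effect minus the siFOXM1 effect. The replicate block moved them to 56.6% in siBoth, to 55% in the siBoth effect minus the siFOXM1 effect and from 11.3% to 41.6% in siFOXM1 (57.3%, 55.4% and 45.3% with both corrections).

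Directions reversed for values near 0. In siBoth, EXT1 turned to 0.0446 and 0.0461 (GC and length, without and with block) and GLCE to 0.008 (upper-quartile), 0.0934 and 0.093. In FDI6, EXT2 turned to −0.0168 (upper-quartile), −0.23 and −0.23 (GC and length, without and with block), HS2ST1 to −0.0167, −0.32 and −0.32, and NDST1 to 0.0502 and 0.0504 (GC and length, without and with block). In the siBoth effect minus the siFOXM1 effect, EXT1 turned to −0.0024 (DESeq2) and −0.0169 (no filter), and FOXM1 to −0.0111 (no filter), −0.0037 (block), −0.0536 (GC and length) and −0.0618 (with block). In the FDI6 effect minus the siFOXM1 effect, EXT2 turned to 0.0169 and HS2ST1 to 0.0029 (no filter). Without 1 library, HS6ST2 in siMYBL2 spanned −0.0837 to 0.36, siFOXM1 values spanned −0.0091 to 0.0777 (EXT2), −0.154 to 0.0187 (EXTL2), −0.0153 to 0.131 (HS2ST1), −0.32 to 0.12 (HS6ST1), −0.32 to 0.24 (HS6ST2) and −0.143 to 0.026 (MYBL2), siBoth values −0.19 to 0.0266 (GLCE) and −0.37 to 0.0891 (HS6ST2), and FDI6 values −0.0007 to 0.0559 (HS2ST1) and −0.0367 to 0.0446 (NDST1). The siBoth effect minus the siFOXM1 effect spanned −0.0497 to 0.0408 (EXT1), −0.11 to 0.16 (FOXM1), −0.40 to 0.0445 (HS6ST1), −0.41 to 0.15 (HS6ST2) and −0.0636 to 0.22 (NDST1), and the FDI6 effect minus the siFOXM1 effect −0.0515 to 0.0358 (EXT2) and −0.11 to 0.0414 (HS2ST1). These fits of differences of effects without 1 library were added after seeing the data. Causes were not tested.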
